A study of Canis lupus familiaris with 6 samples.

Results

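The AP-1 and EGR immediate early factors were followed across both culture conditions of the study through 10 genes: FOS, FOSB, FOSL1, FOSL2, JUN, JUNB, JUND, ATF3, EGR1 and IER2. Every non-control probe that the array annotation assigned to one of these names was taken, which gave 13 of the 43591 probes measured. FOSL2, EGR1 and IER2 were each read by 2 probes and the other 7 genes by 1. The samples came from MDCK-pTR GFP-RasV12 cells, a derivative of the MDCK dog kidney epithelial cell line that makes GFP-tagged oncogenic Ras when tetracycline is added. The cells were grown either alone (3 samples, "alone") or among an excess of normal MDCK cells, 10 for each RasV12 cell (3 samples, "mixed"), on collagen-coated dishes with tetracycline for 24 h, so that the Ras transgene was switched on in both groups. Cells were then sorted by GFP, and total RNA of each sample was hybridized to its own 1-colour Agilent canine array. The comparison asks how the transcripts of RasV12 cells differ when normal epithelial neighbours surround them.

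Several labels limit these groups as a model. One mixed sample (replicate 2) carries a ratio of 1:100 in its label, where the other mixed labels and the methods give 1:10. The RNA extraction text in the labels names cells with mCherry-β-catenin Δ131, a construct that no title or source name carries. Nothing in the labels says whether replicates were separate cultures, so p-values measure the spread between these samples, which may be technical. The 3 alone arrays shared 1 slide and the 3 mixed arrays another, so an effect of the slide and an effect of the neighbours cannot be told apart. In sorted bulk RNA, a change in transcript per cell and a change in the fraction of cells that express the gene cannot be told apart.

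AP-1 is a dimer of basic leucine zipper proteins, in which a JUN family protein (JUN, JUNB, JUND) pairs with another JUN protein, a FOS family protein (FOS, FOSB, FOSL1, FOSL2) or an ATF protein such as ATF3. FOS, EGR1 and IER2 are classic immediate early genes: growth factors, stress and MAP kinase signalling switch them on within minutes and without new protein synthesis, through serum response factor and its ternary complex partners. FOSL1, which encodes FRA-1, responds more slowly and stays high under sustained Ras-ERK signalling, partly because AP-1 itself drives it. EGR1 is a zinc finger factor that binds GC-rich sites and has no leucine zipper.

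Each measurement rests on a 60-base probe, and where the probe sits decides which transcripts it reads. The 3 probes below are printed because each has just 1 reading frame free of stop codons, and because they show a member that was lower in mixed culture, one that was higher and one that was not called. Capitals mark the complete codons of that frame, 5′ to 3′ on the transcript strand, and coordinates are on canFam3. The FOSL1 probe lies at chr18:51373542-51373601 on the plus strand and is open along its whole length. EGR1 probe 1 lies at chr11:26048514-26048573, plus strand. The JUN probe lies at chr5:50968771-50968830, plus strand.
FOSL1: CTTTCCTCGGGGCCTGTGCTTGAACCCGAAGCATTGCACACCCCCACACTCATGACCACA
EGR1 probe 1: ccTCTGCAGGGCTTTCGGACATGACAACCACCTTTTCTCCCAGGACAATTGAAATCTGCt
JUN: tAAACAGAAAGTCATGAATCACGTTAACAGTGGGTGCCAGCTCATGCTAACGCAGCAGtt

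The FOS probe (chr8:48334037-48334096, plus strand), the ATF3 probe (chr7:10794088-10794147, plus strand) and IER2 probe 2 (chr20:49071252-49071311, minus strand) hold a stop codon in all 3 frames of the transcript strand. IER2 probe 2 also holds the polyadenylation hexamer. IER2 probe 1 (chr20:49072370-49072429, minus strand) starts 1118 bases from it, and EGR1 probe 2 (chr11:26048849-26048908, plus strand) starts 335 bases from EGR1 probe 1. FOSL2 probe 1 is an exon-junction probe, since its 60 bases span 10459 bases of chromosome 17 (chr17:22341420-22351878, plus strand), and FOSL2 probe 2 lies at chr17:22360314-22360373 on the same strand. The remaining probes lie at chr1:110088773-110088832, minus strand (FOSB), chr20:49359917-49359976, minus strand (JUNB), and chr20:44738869-44738928, plus strand (JUND).

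Of the 13 probes, 5 from 4 genes (FOS, JUND, ATF3 and both EGR1 probes) were higher in mixed culture, 1 (FOSL1) was lower, and 7 did not pass the threshold, an adjusted p under 0.05 in limma over all 26529 probes tested. The share called was 46.2% for these probes against 11.2% of all tested probes. By direction, 38.5% were called higher, against 5.5% of all probes, and 7.69% were called lower, against 5.72%. All 13 probes were well above background on all 6 arrays and none was saturated, so no member was lost to the filter on dim probes. The values below are log2 intensities minus the array's 75th percentile ("scaled log2 intensity"), on which 0 is the 75th percentile itself. On this scale all 3 mixed arrays lay above all 3 alone arrays for 8 member probes, where 17.8% of all tested probes did so, and below them for 1, where 19.3% did. The median difference of the 13 probes was 0.26, against -0.0035 for all tested probes. No member probe passed the threshold without alone replicate 2, alone replicate 3, mixed replicate 2 or mixed replicate 3, though 7, 6, 7 and 9 of them kept an unadjusted p under 0.05. Without alone replicate 1 the count was 7, and without mixed replicate 1 it was 4.

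**Figure D1:**
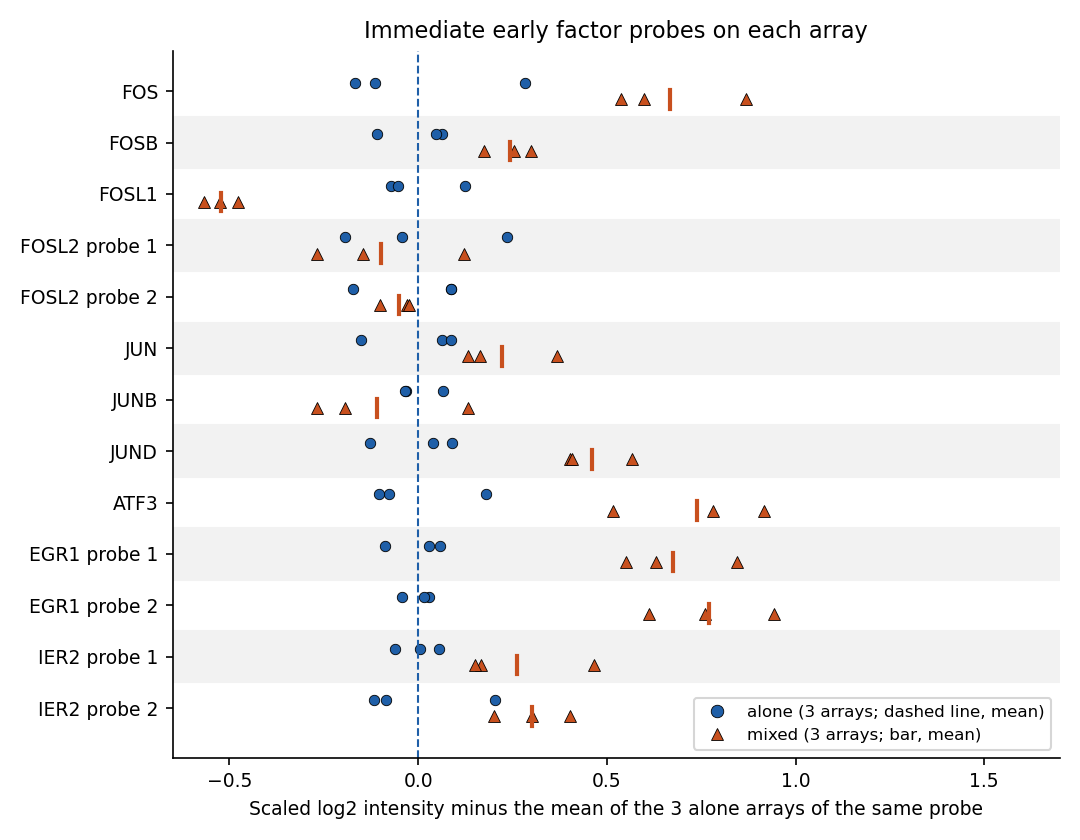
Scaled log2 intensity of each member probe on each array, given as the difference from the mean of the 3 alone arrays of the same probe (x axis, log2 units). Circles are alone arrays, triangles mixed arrays and bars the mixed means. For FOS, JUND, ATF3 and EGR1 all triangles lie right of all circles, and for FOSL1 all lie left of them.

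FOS family proteins cannot pair with each other and need a JUN partner. Of their 4 genes, FOS was higher and FOSL1 lower in mixed culture, and FOSB and FOSL2 did not pass the threshold. FOS had scaled log2 intensities of 6.18, 5.73 and 5.79 in alone samples 1 to 3 and 6.77, 6.44 and 6.50 in mixed samples 1 to 3. The lowest mixed value stood above the highest alone value, and alone replicate 1 was the highest of its group. In unscaled intensity this was 39244 ± 5002 alone and 59544 ± 8149 mixed (SD, n = 3 each). The difference was 0.67 on the log2 scale (SE 0.15, 95% interval 0.31 to 1.03, 1.59-fold, adjusted p = 0.0393 by limma).

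FOSL1 went the other way. Its scaled log2 intensities were -1.16, -0.96 and -1.14 alone and -1.57, -1.66 and -1.61 mixed. The mixed samples lay within 0.10 of each other, and every one was lower than every alone sample. Unscaled, the intensity was 309 ± 43.5 alone and 204 ± 10.0 mixed (SD, n = 3 each). The difference was -0.52 (SE 0.08, 95% interval -0.72 to -0.33, 0.70-fold, adjusted p = 0.0193 by limma). It was negative in each of the 3 pairs of samples with the same replicate number, at -0.41, -0.69 and -0.47.

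FOSB, whose product resembles FOS, did not pass the threshold. Its scaled log2 intensities were -0.81, -0.83 and -0.99 alone and -0.58, -0.62 and -0.70 mixed, so the groups did not overlap. The difference was 0.24 (SE 0.08, 95% interval 0.05 to 0.44, adjusted p = 0.0989). FOSL2, which encodes FRA-2, overlapped between groups on both probes. Probe 1 read -3.01, -2.74 and -3.17 alone and -3.24, -2.85 and -3.12 mixed, a difference of -0.10 (95% interval -0.45 to 0.25, adjusted p = 0.685). Probe 2 read -2.49, -2.23 and -2.23 alone and -2.42, -2.34 and -2.34 mixed, a difference of -0.05 (95% interval -0.28 to 0.17, adjusted p = 0.742).

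In the JUN family, JUND, the member that most cells keep at a steady level, was higher in mixed culture. It read 4.85, 4.63 and 4.80 alone and 5.33, 5.16 and 5.17 mixed, with no overlap between groups. The difference was 0.46 (SE 0.09, 95% interval 0.24 to 0.68, 1.38-fold, adjusted p = 0.0306 by limma). JUN, the partner most often joined to FOS and itself an AP-1 target, was not called. It read 5.40, 5.61 and 5.64 alone and 5.68, 5.92 and 5.71 mixed, so the groups were parted by 0.04. The JUN difference was 0.22 (SE 0.10, 95% interval -0.03 to 0.47, adjusted p = 0.197). JUNB, which can oppose JUN at some AP-1 sites, overlapped between the groups at -2.95, -2.86 and -2.95 alone and -2.79, -3.19 and -3.11 mixed. Its difference was -0.11 (95% interval -0.39 to 0.17, adjusted p = 0.561), with mixed replicate 1 above and the other mixed samples below every alone sample.

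ATF3, a stress-inducible member of the ATF/CREB family that pairs with JUN proteins, had one of the larger differences. It read 0.61, 0.35 and 0.33 alone and 0.95, 1.35 and 1.21 mixed, and the lowest mixed sample was above the highest alone sample. Unscaled, the intensity was 882 ± 69.1 alone and 1412 ± 221 mixed (SD, n = 3 each). The difference was 0.74 (SE 0.13, 95% interval 0.42 to 1.05, 1.67-fold, adjusted p = 0.0244 by limma).

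EGR1 was higher in mixed culture on both of its probes. Probe 1 read 0.79, 0.91 and 0.94 alone and 1.72, 1.51 and 1.43 mixed, a difference of 0.67 (SE 0.10, 95% interval 0.44 to 0.91, 1.60-fold, adjusted p = 0.0183 by limma). Probe 2 read 2.42, 2.41 and 2.35 alone and 3.33, 3.15 and 3.0 mixed, a difference of 0.77 (SE 0.10, 95% interval 0.54 to 1.01, 1.71-fold, adjusted p = 0.0156 by limma). On both, the 3 mixed samples lay well clear of the alone samples, and the 2 probes differed from each other by 0.10 in their response.

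IER2, an immediate early gene whose product is a nuclear protein without a leucine zipper, was not called on either probe. Probe 1 read -0.96, -1.01 and -1.07 alone and -0.55, -0.85 and -0.86 mixed, with no overlap, and its difference was 0.26 (95% interval 0.01 to 0.51, adjusted p = 0.145). Probe 2 read 3.82, 3.53 and 3.50 alone and 4.02, 3.92 and 3.82 mixed, where the highest alone and the lowest mixed sample met at 3.82. Its difference was 0.30 (95% interval 0.04 to 0.57, adjusted p = 0.121). Without alone replicate 1, IER2 probe 2 passed the threshold, at 0.40 (adjusted p = 0.0236).

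**Figure D2:**
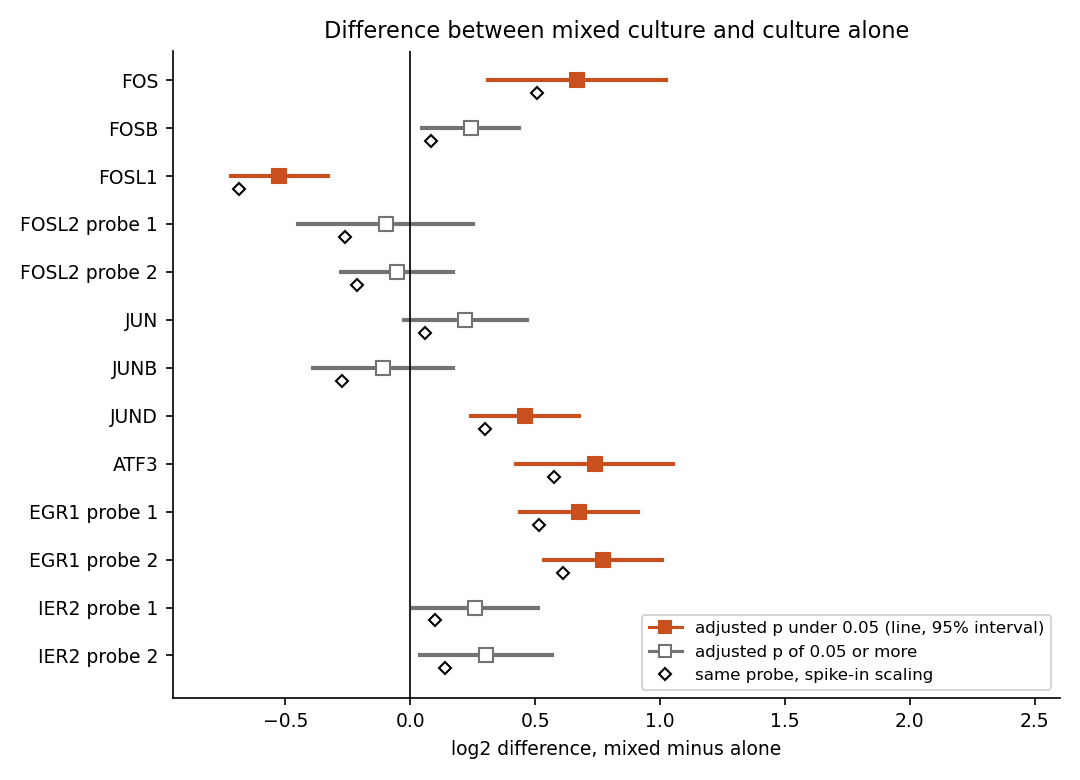
Difference between mixed and alone (x axis, log2 units) for each member probe, with its 95% interval from limma (3 samples a group). Filled squares have an adjusted p under 0.05, and diamonds give the same difference after scaling on spike-in controls. The squares run from -0.52 (FOSL1) to 0.77 (EGR1 probe 2), and the spike-in values lie 0.16 lower.

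The scaling bears on all of these values together. Of the 10 spike-in RNAs, 7 were well above background on every array, and all 7 were higher on the mixed arrays after percentile scaling, by 0.0962 to 0.236 (mean 0.161). Scaled on these spike-ins instead, the median of all tested probes moved to -0.16, and the share of called probes that were higher in mixed fell from 49.0% to 30.2%. The differences then were 0.51 for FOS (adjusted p = 0.0572), -0.68 for FOSL1 (0.0511), 0.30 for JUND (0.12), 0.58 for ATF3 (0.0589) and 0.51 and 0.61 for the EGR1 probes (0.0784 and 0.0453). All kept their direction, and of the 6 calls only that of EGR1 probe 2 held.

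A ratio of 2 probes on one array does not depend on how the array is scaled. Such ratios were formed for 12 pairs of member probes, chosen after their values were seen, and the groups did not overlap for 7 of them. Among all tested probes taken singly, 37.15% had groups that did not overlap in either direction. The share among ratios of other probes was not computed, so the count describes and does not test. The log2 ratio of FOS to FOSL1 was 7.34, 6.70 and 6.93 alone and 8.33, 8.09 and 8.11 mixed. This was a change of 1.19, the largest of the 12, and the mixed samples were all above the alone samples. The ratio of FOSL1 to FOSL2 changed by -0.42 on probe 1 and -0.47 on probe 2, so FOSL1 was also lower relative to its closest relative. Between the JUN genes, the ratio of JUND to JUNB changed by 0.57 with no overlap, while JUND to JUN changed by 0.24 and JUN to JUNB by 0.33, both with overlap. The 2-sided exact permutation p was 0.1 for each ratio without overlap, which is the smallest that 3 against 3 samples allow (0.171 after adjustment over the 12 pairs).

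**Figure D3:**
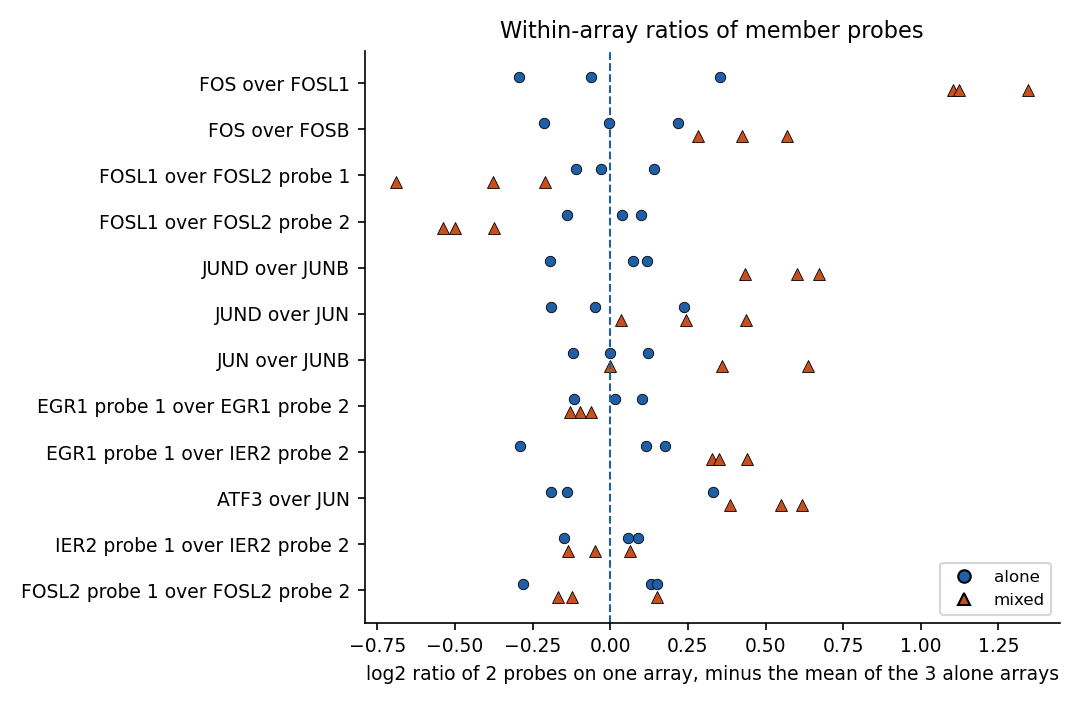
Log2 ratio of 2 member probes on the same array, given as the difference from the mean of the 3 alone arrays (x axis, log2 units). Circles are alone arrays and triangles mixed arrays. The triangles for FOS over FOSL1 lie farthest right, with a mean of 1.19, and the 2 probes of EGR1, IER2 and FOSL2 overlap between groups in their own ratios.

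The arrays also carried the genes around these factors. The lists of such genes were chosen with earlier results of these data known, so their counts describe and do not test. For the other immediate early genes, the leucine zipper partners and the upstream genes, no probe passed without alone replicate 2 or 3 or mixed replicate 2 or 3 (6 to 7, 8 to 11 and 17 to 19 had an unadjusted p under 0.05), and 11, 10 and 20 passed without alone replicate 1. Without mixed replicate 1, 5 partner and 7 upstream probes passed. Of 38 tested probes for other immediate early genes (29 genes), 5 were higher and 1 lower, with a median of 0.07. The shares were 13.2% higher and 2.6% lower, against 5.5% and 5.72% of all tested probes. BTG2, an antiproliferative gene, was higher on both probes (0.89 and 0.88, adjusted p = 0.0159 and 0.0134), as were the nuclear receptor NR4A1 (0.84, adjusted p = 0.0134), the transcriptional coregulator CITED2 (0.63, adjusted p = 0.0465) and DUSP1, a phosphatase that switches off MAP kinases (0.36, adjusted p = 0.0375). PER1, a circadian clock gene, was lower (-0.68, adjusted p = 0.014). With the samples paired by replicate number, CITED2 was no longer past the threshold (adjusted p = 0.0768).

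Of the basic leucine zipper partners and the coregulators of AP-1 and EGR1, 3 of 34 tested probes (22 genes) were higher and 0 lower by limma, with a median of 0.13. The share called was 8.8%, all higher, against 11.2% of all tested probes called and 5.5% called higher. The share of calls in this list was thus not above that of all probes. In either direction, 13 had an unadjusted p under 0.05, and 0 passed the adjusted threshold by the methods' t-test, an unpaired test of each probe by itself. ATF5, a stress-responsive ATF factor, gave 1.67 and 0.50 on its 2 probes (adjusted p = 0.0136 and 0.0225), which differ in size but not in direction. NFE2L2, the oxidative stress regulator NRF2, gave 0.40 (adjusted p = 0.0457, and 0.0755 with paired samples) on the dimmest of its 3 probes. The others were not called (0.16 and 0.32, adjusted p = 0.439 and 0.068).

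Of 45 tested probes for the kinases and factors upstream (22 genes), 2 were higher, 10 lower and 33 not called, with a median of -0.13. The shares were 4.4% higher and 22.2% lower, against 5.5% and 5.72% of all tested probes. MAP2K3, a kinase that activates p38, was lower on 2 probes (-0.78 and -0.93, adjusted p = 0.0183 and 0.0221), and MAPKAPK2, a kinase that p38 activates, on 3 probes (-0.48, -0.61 and -0.69, adjusted p = 0.0183, 0.0227 and 0.0183). RPS6KA1 and RPS6KA3, the ribosomal S6 kinases RSK1 and RSK2 downstream of ERK, were also lower (-0.52 and -0.53 for RPS6KA1, -0.35 and -0.32 for RPS6KA3). MAP2K5, which activates ERK5, was higher (0.38, adjusted p = 0.0263). MAP2K6, the other p38 kinase, was higher (1.60, adjusted p = 0.0459), but only 1 of the 3 alone arrays measured it above background against all 3 mixed arrays. With paired samples the MAP2K6 and RPS6KA3 probes and 1 of the 2 called RPS6KA1 probes missed the threshold (adjusted p = 0.0568 to 0.0762). One further probe each was tested for MAP2K3 (-0.45), MAPKAPK2 (-0.15), RPS6KA1 (-0.30) and MAP2K5 (0.24), and none of these passed (adjusted p = 0.118, 0.268, 0.0726 and 0.163). Each was the brightest tested probe of its gene, so the calls for these genes came from dimmer probes.

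Genes described as AP-1 targets had the largest share of calls of the lists taken, and most of those calls were lower. Of 39 tested probes (25 genes), 3 from 2 genes were higher and 18 from 12 genes lower, with a median of -0.49. The shares were 7.7% higher and 46.2% lower, against 5.5% and 5.72% of all tested probes. S100A2, an epithelial calcium-binding protein, was lower by -1.99 and -2.19 on its 2 probes (adjusted p = 0.0111 and 0.0103). LAMA3, a laminin chain of the basement membrane, was lower by -1.0 (adjusted p = 0.0103). EREG, an EGF receptor ligand, was lower by -0.72 (adjusted p = 0.0103). Further genes with a lower call, listed after their values were seen, were CCND1, CD44, DUSP14, ETS1, MMP13, PLAU, PLAUR and VEGFA. The brighter probe of VEGFA (-0.31, adjusted p = 0.202) and another of ETS1 (-0.49, adjusted p = 0.058) were not called. SPP1, the secreted matrix protein osteopontin, was higher on both probes (0.80 and 0.83, both adjusted p = 0.0125), and ENPP1, a nucleotide pyrophosphatase, on 1 (0.46, adjusted p = 0.0465, and 0.0506 with paired samples). No probe of this list passed without alone replicate 2 or 3 or mixed replicate 2 or 3 (24, 24, 23 and 24 had an unadjusted p under 0.05), against 22 without alone replicate 1 and 23 without mixed replicate 1. With spike-in scaling, 17 of the 21 calls held.

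**Figure D4:**
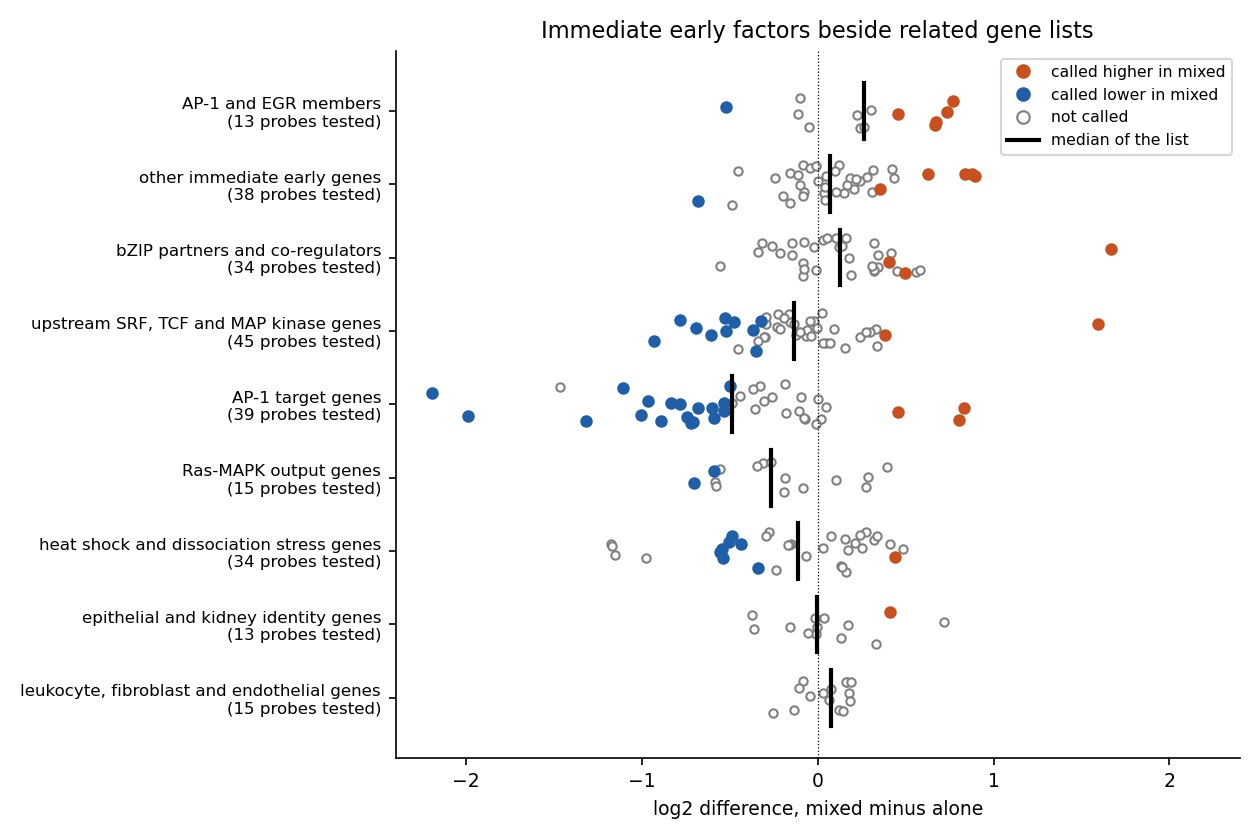
Difference between mixed and alone (x axis, log2 units) for each tested probe of the members and of the lists set beside them. Filled points were called by limma, open points were not, and bars give the list medians. The members have 5 calls right of 0 and 1 left of it, and the AP-1 target genes have 3 right and 18 left.

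Some values that could move with these results were taken from the same arrays. Output genes of Ras-MAPK signalling gave 0 higher and 2 lower of 15 tested probes by limma (8 with an unadjusted p under 0.05 in either direction, 0 called by the methods' t-test), EPHA2 at -0.71 (adjusted p = 0.0242) and CCND1 at -0.59 (adjusted p = 0.0366, and 0.0631 with paired samples). The share lower was 13.3%, against 5.72% of all probes, and the median was -0.26, with 4 probes above 0 and 11 below. The summed level of the output genes, on a linear scale relative to the 75th percentile, was 182 to 186 alone and 144 to 172 mixed. DUSP6 carried most of this sum, with the 2 brightest probes of the list (scaled log2 means of 6.49 and 5.49 alone). None of its probes was called (-0.19 to -0.34, adjusted p = 0.0607 to 0.206 by limma). CCND1 is also in the AP-1 target list. The output list was taken as lower in normal MDCK cells, which only the mixed samples could have carried through the sort. Whether such cells were carried over was not tested. The HRAS probe read 8.19, 8.25 and 8.29 alone and 7.95, 7.56 and 7.67 mixed (difference -0.51, adjusted p = 0.0377). Its match to the transgene was not checked, so its signal cannot be assigned to the transgene or to the dog gene. Heat shock and chaperone genes, listed for dissociation stress, gave 1 higher (HSPB8, 0.44, adjusted p = 0.0462, while its other 5 probes, at 0.07 to 0.49, were not called) and 7 lower of 34 tested probes. These were 2.9% and 20.6%, against 5.5% and 5.72% of all probes. The 4 genes lower were HSPA5 (-0.44 to -0.50 on 3 probes), DNAJB1 (-0.54 and -0.55, the first with an adjusted p of 0.0762 with paired samples), HSP90AA1 (-0.55) and HSPD1 (-0.34, adjusted p = 0.0529 with paired samples), and the summed level was 709 to 725 alone and 629 to 641 mixed. Further probes of DNAJB1 (0.03) and HSP90AA1 (-0.17) were not called (adjusted p = 0.914 and 0.241). That of HSP90AA1 was the brighter of its probes. The HSP70 probes read lower in mixed but did not pass (-0.97 to -1.18, adjusted p = 0.0771 to 0.112 by limma). On each, alone replicate 1 lay near the mixed samples and well below alone replicates 2 and 3. For example, 1 probe read 1.92, 3.11 and 3.23 alone and 1.82, 1.69 and 1.82 mixed, and another overlapped between groups. Of these 8 heat shock calls, 6 held with paired samples, 3 by the methods' t-test and 3 with spike-in scaling. No heat shock or Ras-MAPK output probe passed without alone replicate 2 or 3 or mixed replicate 2 or 3 (12 to 17 and 5 to 6 had an unadjusted p under 0.05), while 11 heat shock and 4 output probes passed without alone replicate 1, and 10 and 4 without mixed replicate 1. What part any of these differences has in the values of the AP-1 and EGR1 genes was not tested. Stress also switches on members such as FOS, EGR1, IER2 and ATF3. Whether dissociation or sorting did so in either group was not tested.

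Epithelial transcripts were measured in both groups. Since RasV12 cells derive from MDCK cells, these markers cannot tell them from normal MDCK cells. Of the 12 epithelial and kidney genes listed, 8 were on the array, and all 8 were above background in at least 1 group. Of their 13 tested probes, OCLN, a tight junction protein, was called on 1 of 2 probes (0.41, adjusted p = 0.0246; 0.33, adjusted p = 0.0758 on the other), though not with spike-in scaling or without alone replicate 2 or 3 or mixed replicate 2 or 3, and the summed level was 760 to 935 alone and 818 to 935 mixed. The share of epithelial probes called was 7.7%, against 11.2% of all tested probes. Markers of leukocytes, fibroblasts and endothelium summed to 7.35 to 9.57 alone and 8.09 to 9.78 mixed. VWF, an endothelial marker, weighed most in this sum (scaled log2 intensity 2.07 to 2.69 over all arrays). Of the 15 tested marker probes (9 genes), 0 were called by limma or by the methods' t-test and 1 had an unadjusted p under 0.05. Of the 14 marker genes, 4 were not above background on any array.

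To show which genes shared the pattern of a member over the 6 arrays, Pearson's r was taken between the member and every named probe above background on all arrays. The closest to FOS were LMAN2L (r = 0.998), ANKIB1 (0.998) and NARFL (0.997), and 518 probes had an r above 0.95. For EGR1 (probe 2) they were LMX1B (0.996), EDEM3 (0.994) and PFKL (0.994), with 240 probes above 0.95. JUN had fewer close companions, 30 above 0.95, led by ACOT12 (0.995), OXR1 (0.994) and SEPX1 (0.989). These are descriptions over 6 arrays that share slides and scaling, and the difference between groups takes part in each of them.

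**Figure D5:**
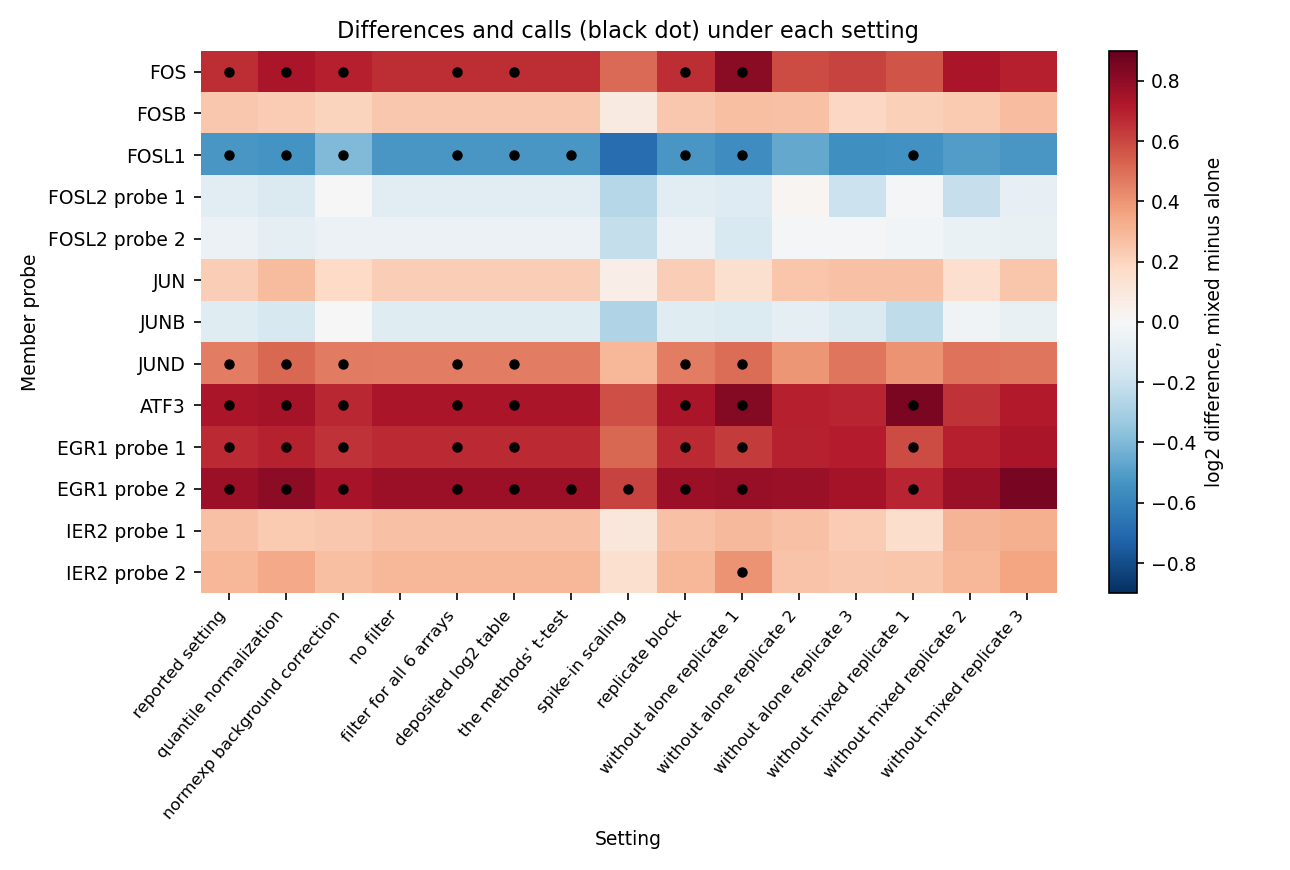
Difference between mixed and alone (colour, log2 units) for each member probe (rows) under the reported setting and 14 alternatives (columns), with a black dot where the adjusted p was under 0.05. FOS, FOSL1, JUND, ATF3 and EGR1 keep their colour in every column, while their dots are missing in 5 to 8 of the 14 alternatives.

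Across the 14 alternatives in the plot of settings, FOS ranged from 0.51 to 0.81, FOSL1 from -0.68 to -0.40, JUND from 0.30 to 0.52, ATF3 from 0.58 to 0.85, and the EGR1 probes from 0.51 to 0.74 and 0.61 to 0.85. The number of alternatives that kept the call was 6 for FOS, 8 for FOSL1, 6 for JUND, 7 for ATF3 and 7 and 9 for the EGR1 probes. The direction of all 6 called probes was the same in all 14.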

How the data were processed

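The authors deposited 1 Agilent Feature Extraction output (version 10.10.1.1 per the file headers) for each of 6 arrays, with processed intensity per spot, background-subtracted and detrended within the array. A table of log2 values was deposited too, and each of its columns equals the log2 processed intensity minus a constant close to the array's 75th percentile. Here, control and flagged spots of the scanner output were dropped (12 probes lost), replicate spots were averaged, and each array was centred, in log2, on its 75th percentile (592 to 700 intensity units). On each array, 60.8% to 66.4% of probes were well above background, and the number of arrays limits the precision. The test took the 26529 probes that every array of 1 group or of both put well above background. Mixed was compared with alone by limma 3.58.1 (R 4.3.3; lmFit and eBayes), 2-sided, with Benjamini-Hochberg adjustment over all tested probes and a threshold of 0.05. On simulated data of this comparison with 26529 probes, 72 of 100 2-fold and 95 of 100 4-fold changes were recovered, with 10 false calls. The simulation held no change below 2-fold and no noise shared between probes or arrays. It therefore does not measure how reliable the member calls are. Other steps used pandas 2.3.3, numpy 2.4.6, scipy 1.17.1 (exact tests) and matplotlib 3.10.9 under Python 3.11.15.

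The members and gene lists were chosen with earlier results of these data known. Named genes are all members, up to 4 genes higher and 4 lower per list by adjusted p, and the 3 probes most like FOS, JUN and EGR1. Deviations from the group means correlated at 0.349, 0.162 and 0.296 between samples numbered 1, 2 and 3 in the titles (-0.329 to 0.238 for different numbers). The highest of the latter exceeded the value for number 2, so the pairing is not certain. The reported fit is unpaired, and a limma fit with replicate number as a block was run as an alternative. With that block the called member probes had adjusted p of 0.0312 to 0.0487. Replicate number is also the array's position on its slide. Promoter sequences were not analysed here. One gene that the naming rule selects is not reported here. Alternatives were quantile normalization, normexp correction (offset 50), other filters, the deposited table, the methods' t-test (unpaired, named for other arrays of the study), spike-in scaling, the block, and leaving out each sample.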

Additional observations from a re-analysis of the deposited data

How the results depend on the processing

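Quantile normalization, normexp background correction, a filter requiring all 6 arrays, the deposited log2 values and the replicate block (pairing) each gave the same 6 member calls, and the block kept 18 of the 21 AP-1 target calls and changed no other member call. With no filter, 0 member probes were called (8 with an unadjusted p under 0.05), with the methods' t-test 2 and with spike-in scaling 1. For the other immediate early genes these counts were 0 (7 unadjusted), 3 and 3, for the leucine zipper partners 0 (9), 0 (9) and 1, for the upstream genes 0 (20), 2 and 5, and for the AP-1 targets 0 (25) and 9. Normexp gave 7 calls among the partners. Over all probes the count was 2975, against 3973 with normexp, 12 with no filter (7821 unadjusted), 829 with the methods' t-test, 1004 with spike-in scaling and 7 to 7332 with 1 sample left out. Leaving out 1 sample gave 0 to 7 calls for the members, 0 to 11 for the other immediate early genes, 0 to 10 for the partners, 0 to 20 for the upstream genes and 0 to 23 for the AP-1 targets. The cause of these losses was not tested. The non-called FOSL2 probe 1 changed sign under normexp (0.0020, adjusted p = 0.989) and without alone replicate 2 (0.0195, in a range of -0.208 to 0.0195 with 1 sample left out), and JUNB under normexp (0.0034, adjusted p = 0.98). Slide could not be fitted as a block, since each slide held 1 group. With 3 samples a group and a median SD between replicates of 0.13, a difference like that of JUN (0.22, SE 0.10) was not called.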
